A study of Mus musculus with 77 samples.

Results

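Imprinted genes are transcribed mainly from the copy inherited from 1 parent. The present account covers 42 autosomal imprinted genes of the mouse and their non-coding RNAs, of 34337 genes in the gene table used (GRCm38.p6). The genes were taken by symbol from a list of known imprinted genes, drawn up with earlier results of these data known, and fall into 15 domains. There were 7 non-coding RNAs (H19, Kcnq1ot1, Airn, Meg3, Rian, Mirg and Nespas) and 35 protein-coding genes among them. For each gene the annotated body with 2 kb on either side was taken as its window. In every deposited peak list it was recorded whether a peak touched the window, which percentage of the window was covered by peaks, and which share of the list's autosomal peak signal fell in the window, in ppm (millionths).

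The lists came from CUT&RUN, in which an antibody directs a nuclease to a histone mark and the released DNA is sequenced, in CD23+ B cells from the spleen of female mice. CD23 is a surface protein of follicular B cells. Libraries were made for H3K27me3 (29 libraries), H2AK119Ub (24) and H3K27ac (24), and each was deposited as 1 list. In the in vivo system, Xist fl/fl ; mb1-cre+ mice were compared with WT (mb1-cre+) mice. The mb1-cre allele drives Cre recombinase in the B lineage from its early stages, and both genotypes carried it. In the ex vivo system, Xist fl/fl and WT cells without mb1-cre were used unstimulated, or were given 80 µg of TAT-cre protein for 45 min and then cultured with CpG. Stimulation was for 24 h with CpG oligonucleotides at 1 µM, which Toll-like receptor 9 senses. Each combination of system, genotype and time held 3 libraries for H2AK119Ub and H3K27ac, and 3 to 5 for H3K27me3. The ex vivo cells at 0 h had not met Cre, so Xist fl/fl cells at that point are a baseline. The ex vivo 24 h libraries had both TAT-Cre and CpG, whose effects cannot be told apart there. The labels used here give no age of the mice. The libraries are titled as biological replicates, and nothing says which mice they came from, so the p-values below measure the spread between these libraries. Both copies of a gene are read together in these lists. A change in the fraction of cells or of parental copies with a mark cannot be told apart from a change in the amount of the mark on each.

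Imprinting rests on DNA methylation that is set in the germ line at a control region of each domain and kept after fertilisation. In several domains a long non-coding RNA, such as Kcnq1ot1 or Airn, is transcribed from the unmethylated control region and silences neighbouring genes on the same chromosome. Polycomb complexes are known to act there. PRC2 places H3K27me3 and PRC1 places H2AK119Ub, and both are associated with silent genes. H3K27ac is found at promoters and enhancers in use. Xist, which silences the inactive X chromosome, also recruits these complexes, but acts in cis on the chromosome that makes it. The peak lists hold no measure of Xist RNA, so the deletion itself was not checked.

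The promoters on which the results below turn are printed here, to show what sequence lay under the marks. The 8 windows are 300 bases long, from 250 bases before to 50 after a transcription start, and come from RefSeq (GRCm38.p6). They are written 5′ to 3′ on the strand of the gene, in lower case with every CpG dinucleotide in capitals. The Ascl2 window (chr7:142969215-142969514, minus strand, 23 CpGs) gained H2AK119Ub at 24 h, and the Rasgrf1 window (chr9:89909525-89909824, plus strand, 26 CpGs) had both Polycomb marks in all libraries. The Mest window (chr6:30737800-30738099, plus strand, 17 CpGs) had H2AK119Ub in all 24 libraries. The Nnat window (chr2:157559828-157560127, plus strand, 17 CpGs) had peaks of that mark in 11 of 12 libraries at 0 h and 4 of 12 at 24 h, and the Plagl1 window (chr10:13090582-13090881, plus strand, 26 CpGs) in 11 and 10. The first and last starts of Gnas (chr2:174284070-174284369, 16 CpGs, and chr2:174329756-174330055, 40 CpGs, both plus strand) carried H3K27me3 and H3K27ac respectively. The Ube3a window (chr7:59228500-59228799, plus strand, 29 CpGs) carried H3K27ac.
Ascl2: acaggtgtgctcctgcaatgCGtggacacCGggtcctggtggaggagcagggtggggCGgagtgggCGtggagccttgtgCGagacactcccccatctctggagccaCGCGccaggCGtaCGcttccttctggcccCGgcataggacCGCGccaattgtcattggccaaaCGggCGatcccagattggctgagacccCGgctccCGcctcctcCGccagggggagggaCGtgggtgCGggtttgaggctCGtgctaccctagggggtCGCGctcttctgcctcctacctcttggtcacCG
Rasgrf1: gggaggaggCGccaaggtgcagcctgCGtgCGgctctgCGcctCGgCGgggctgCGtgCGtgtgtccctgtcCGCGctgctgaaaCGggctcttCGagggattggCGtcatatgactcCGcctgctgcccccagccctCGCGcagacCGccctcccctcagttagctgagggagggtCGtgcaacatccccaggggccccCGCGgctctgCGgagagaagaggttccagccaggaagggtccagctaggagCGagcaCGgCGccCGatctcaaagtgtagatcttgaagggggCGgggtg
Mest, second start: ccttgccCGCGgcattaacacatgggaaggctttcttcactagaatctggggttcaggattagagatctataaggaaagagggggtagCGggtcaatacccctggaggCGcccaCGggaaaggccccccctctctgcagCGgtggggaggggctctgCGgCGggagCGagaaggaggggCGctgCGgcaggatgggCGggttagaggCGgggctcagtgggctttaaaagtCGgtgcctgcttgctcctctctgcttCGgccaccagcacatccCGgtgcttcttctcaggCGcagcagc
Nnat: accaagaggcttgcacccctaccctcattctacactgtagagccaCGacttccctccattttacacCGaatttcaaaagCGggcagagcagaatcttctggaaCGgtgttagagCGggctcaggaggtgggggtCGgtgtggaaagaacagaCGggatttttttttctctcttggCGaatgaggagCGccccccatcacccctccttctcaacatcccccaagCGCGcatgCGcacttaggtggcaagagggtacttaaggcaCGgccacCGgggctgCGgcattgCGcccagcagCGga
Plagl1: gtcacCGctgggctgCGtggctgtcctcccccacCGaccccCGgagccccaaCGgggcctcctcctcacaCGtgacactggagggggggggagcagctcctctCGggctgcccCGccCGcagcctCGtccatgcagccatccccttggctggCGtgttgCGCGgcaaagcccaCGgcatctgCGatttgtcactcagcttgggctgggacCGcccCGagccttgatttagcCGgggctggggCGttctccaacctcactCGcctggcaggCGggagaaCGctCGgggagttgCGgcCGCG
Gnas, first start: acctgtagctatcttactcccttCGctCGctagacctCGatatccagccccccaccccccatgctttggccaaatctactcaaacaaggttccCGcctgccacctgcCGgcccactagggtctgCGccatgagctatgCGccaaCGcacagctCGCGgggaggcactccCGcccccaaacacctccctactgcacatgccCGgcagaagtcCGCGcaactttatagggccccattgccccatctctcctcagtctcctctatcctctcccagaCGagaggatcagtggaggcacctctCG
Gnas, last start: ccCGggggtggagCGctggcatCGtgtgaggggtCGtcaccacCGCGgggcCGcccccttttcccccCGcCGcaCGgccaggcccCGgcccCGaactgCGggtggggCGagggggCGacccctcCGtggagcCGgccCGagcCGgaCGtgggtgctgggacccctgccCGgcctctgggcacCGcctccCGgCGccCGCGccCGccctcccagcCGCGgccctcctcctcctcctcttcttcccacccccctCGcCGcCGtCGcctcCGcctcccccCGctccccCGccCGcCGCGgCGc
Ube3a: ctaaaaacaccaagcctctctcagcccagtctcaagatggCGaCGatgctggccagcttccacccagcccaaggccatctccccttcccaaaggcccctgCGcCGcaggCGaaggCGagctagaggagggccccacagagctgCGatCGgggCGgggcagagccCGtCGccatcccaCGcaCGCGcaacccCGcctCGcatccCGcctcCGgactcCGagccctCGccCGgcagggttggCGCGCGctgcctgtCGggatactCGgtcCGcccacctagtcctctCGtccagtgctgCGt

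The lists differed in length. The H3K27me3 lists held 1955 to 19074 peaks, the H2AK119Ub lists 2004 to 40688 and the H3K27ac lists 1336 to 10393. Depth and list length cannot be told apart because the files state no read depth. Medians rose from 0 h to 24 h, from 5154 to 8697.5 peaks for H3K27me3, from 17796.5 to 25206 for H2AK119Ub and from 3183 to 7884.5 for H3K27ac. The B cell genes Fcer2a (the gene of CD23), Ms4a1 and Pax5 had an H3K27ac peak in every library and an H3K27me3 peak in none. H2AK119Ub lay on them too, at 0 h and then 24 h in 2 and 4 of 12 libraries for Fcer2a, 6 and 7 for Ms4a1, and 1 and 12 for Pax5. H3K27ac was seen in at least 50% of libraries on 2 of 10 T cell, 0 of 10 myeloid, 0 of 8 NK cell and 2 of 8 erythroid markers. Of the T cell markers, Cd2 had H3K27ac in 24 of 24 libraries, Lck in 22 and Cd3d and Cd3g in 5 each. Cd3e, Cd4, Cd8a, Lat, Zap70 and Thy1 had no H3K27ac peak in any library. The erythroid markers Hbb-bt and Tfrc had H3K27ac in 19 of 24 libraries each.

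Polycomb marks lay on more of these genes than H3K27ac did. H3K27me3 was found on 27 of the 42 genes in at least 1 library, on 14 in at least 50% of the 29 libraries (33.3%, against 20.2% of all autosomal genes), and on Ascl2, Mest, Dlk1 and Rasgrf1 in all of them. H2AK119Ub was found on 31 genes, on 24 in at least 50% of the 24 libraries (57.1%, against 36.2% of autosomal genes), and on Mest and Rasgrf1 in all. H3K27ac was found on 11 genes and in at least 50% of libraries on 5 (11.9%, against 15.4%), namely Cd81, Ube3a, Impact, Gnas and Commd1. These shares are descriptions, and the difference from other genes was not tested. A single library had peaks on a median of 15 of the 42 genes for H3K27me3 (range 6 to 25), 23 for H2AK119Ub (3 to 27) and 4 for H3K27ac (0 to 8).

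Taking presence in at least 50% of libraries, 13 genes had both Polycomb marks and no H3K27ac: Igf2, Kcnq1, Kcnq1ot1, Phlda2, Slc22a18, Ascl2, Mest, Plagl1, Dlk1, Grb10, Nespas, Ppp1r9a and Rasgrf1. Both marks in a window need not lie on the same bases. On Kcnq1, Kcnq1ot1 and Ppp1r9a the stretches of each mark found in at least 50% of libraries shared 0 kb. H2AK119Ub alone was found on 8 genes: H19, Tssc4, Copg2, Ddc, Igf2r, Airn, Nnat and Sgce. Cd81 and Commd1 had H2AK119Ub and H3K27ac, Ube3a and Impact had H3K27ac alone, and Gnas had all 3 marks. The other 16 genes passed for no mark, and 7 of these (Zim1, Ndn, Magel2, Mkrn3, Mirg, Rtl1 and Slc22a2) had no peak of any mark in any of the 77 libraries. Of the 18 genes known as maternally expressed, 5 had H3K27me3 and 11 had H2AK119Ub in at least 50% of libraries, and of the 21 known as paternally expressed, 7 and 10 did. Of the 7 non-coding RNAs, 2 had H3K27me3 (Kcnq1ot1 and Nespas) and 4 had H2AK119Ub (these and H19 and Airn). These counts take a peak anywhere in the window. Bases under H2AK119Ub in at least 50% of libraries made up 0.23 kb for H19, in the flank outside the gene, and 0 kb for Kcnq1ot1. Several windows share sequence, so their values are not separate: all of the Kcnq1ot1 window lies inside that of Kcnq1, 83.1% of the Nespas window inside that of Gnas, all of that of Zrsr1 inside Commd1, and 52.6% of that of Tssc4 inside Cd81.

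**Figure D1:**
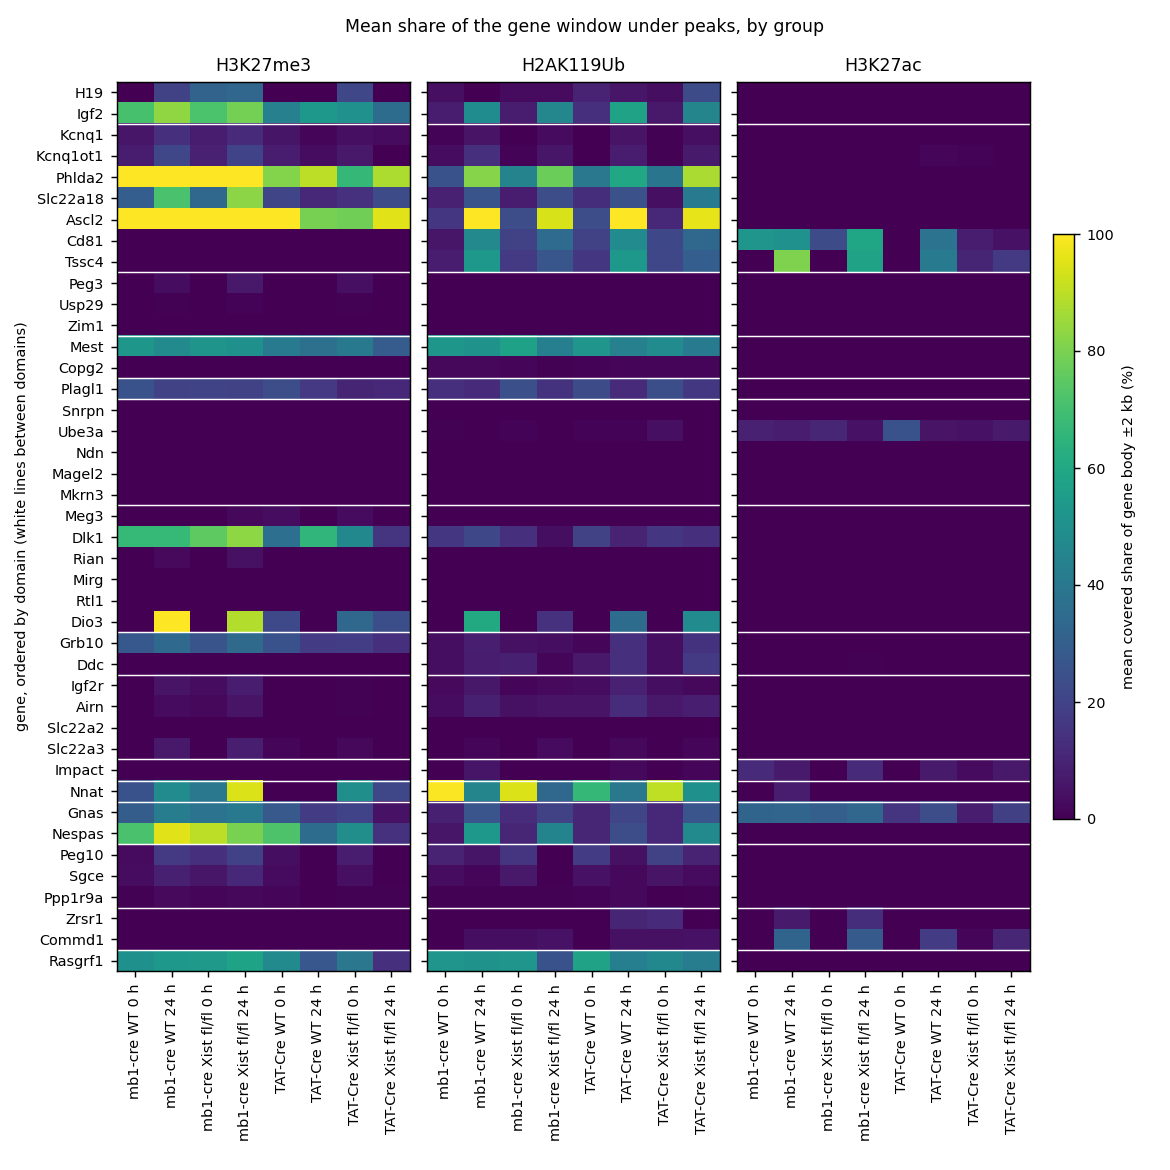
Mean percentage of each gene's window (body with 2 kb on either side) covered by peaks, for the 42 genes in rows ordered by domain and the 8 combinations of system, genotype and time in columns, with a panel for each mark and a colour scale in percent. Both Polycomb marks cover Ascl2, Phlda2, Mest, Plagl1 and Rasgrf1, the Peg3 domain and most of the Snrpn/Ube3a domain are nearly blank in all panels, and H3K27ac is limited to 11 rows.

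H3K27me3 covered the larger part of the windows of Ascl2, Phlda2, Igf2, Dlk1 and Nespas. Ascl2 encodes a basic helix-loop-helix transcription factor needed in the placenta. Over the 29 libraries, 38.5% to 100% of its window was under H3K27me3 peaks, with a median of 100%. Phlda2, a growth-restraining gene of the placenta, ranged from 0 to 100% with a median of 100% and had a peak in 28 libraries. Igf2, a fetal growth factor, ranged from 0 to 91.4% with a median of 67.8%, also in 28 libraries. Dlk1, a Notch-related membrane protein, ranged from 8.42% to 97.2% with a median of 68.2%. Covered shares of Ascl2 and Phlda2 were thus at their ceiling in most libraries, and those of Igf2 and Dlk1 spread widely.

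Rasgrf1 encodes an exchange factor that activates Ras. Its window was covered for 8.10% to 68.0%, with a median of 49.3%. The stretch under H3K27me3 in at least 15 of 29 libraries was 114 kb long (chr9:89855351-89969572) and held the transcription start, and the stretch shared by all 29 libraries was 12.6 kb. Mest encodes an enzyme of the alpha/beta hydrolase fold. Its covered share ran from 19.8% to 58.4% with a median of 47.4%, and its stretch in at least 15 libraries was 17.7 kb (chr6:30722964-30740620) with 3 annotated starts inside. In both, the covered stretch ran from upstream of the first start into the 5′ part of the gene. Plagl1, a zinc-finger transcription factor, had H3K27me3 in 27 libraries with a median cover of 18.9%, and Grb10, an adaptor that damps insulin signalling, in 28 libraries with a median of 25.5%.

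Among the non-coding RNAs, Kcnq1ot1 was almost free of the marks at its start. At the Kcnq1ot1 promoter no library of 29 had H3K27me3 and 1 of 24 had H2AK119Ub. The H3K27me3 stretch inside the Kcnq1ot1 window (chr7:143207073-143218234, 11.2 kb) lay 78.3 kb from that start, towards the far end of the RNA, which is also part of Kcnq1, a potassium channel gene. Across the Kcnq1 domain of 540 kb the median covered share was 16.1% for H3K27me3, 9.76% for H2AK119Ub and 4.71% for H3K27ac. H19, the growth-restraining RNA next to Igf2, had H3K27me3 in 11 of 29 libraries. Airn, the RNA that silences Igf2r, had it in 8. Meg3 and Rian had it in 3, and Mirg in none.

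**Figure D2:**
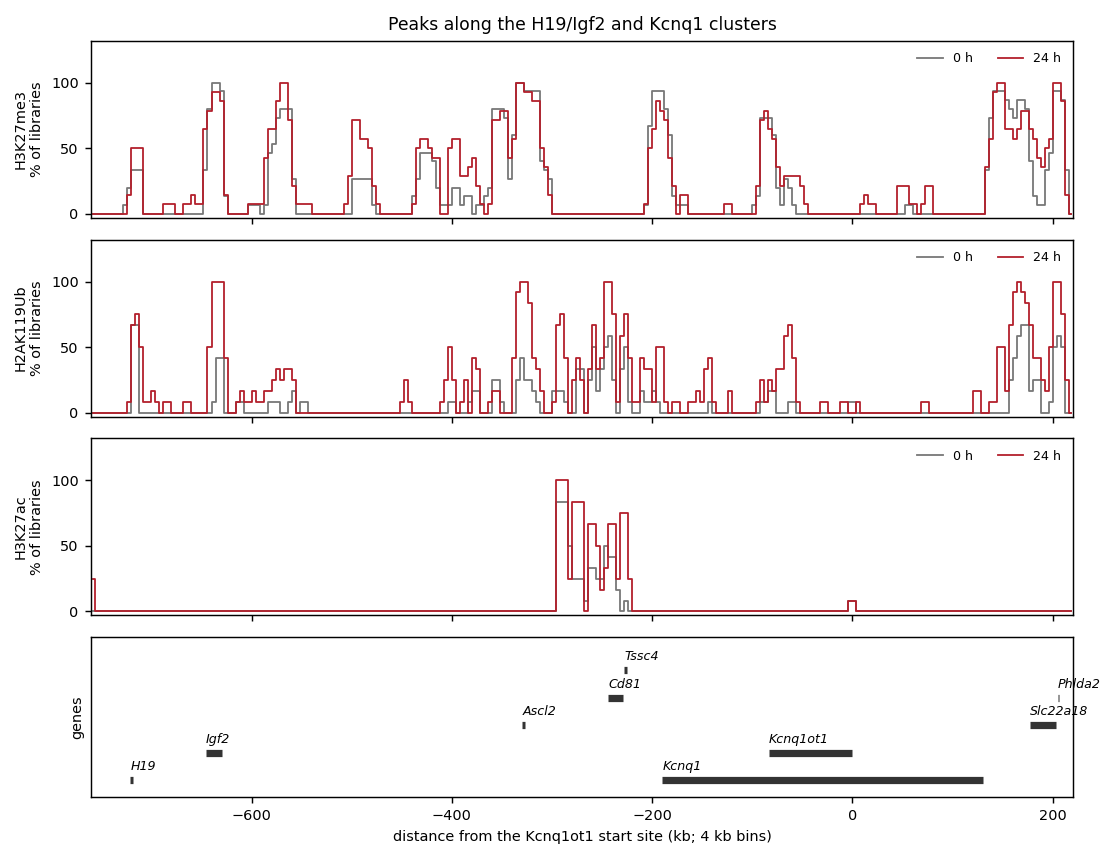
Percentage of libraries with a peak in each 4 kb bin along the H19/Igf2 and Kcnq1 domains, against distance in kb from the Kcnq1ot1 start, with a panel for each mark (0 h in grey, 24 h in red). H3K27me3 forms blocks on both sides of the Kcnq1ot1 start, and no library has it in the bins next to that start, where 8.33% of the 0 h libraries have H2AK119Ub.

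Silent and active marks divided the Gnas locus, which encodes the stimulatory G protein alpha subunit and, from upstream starts, other transcripts. H3K27me3 in at least 15 of 29 libraries covered 23.2 kb (chr2:174281339-174304577), with the first Gnas start and most of Nespas, the antisense RNA of the locus. H3K27ac in at least 12 of 24 libraries covered 20.8 kb (chr2:174325009-174345855), with the 3 downstream starts. The stretches shared 0 kb. Nespas was covered by H3K27me3 for 0 to 100% of its window, with a median of 82.0% and peaks in 25 libraries, and Gnas for 0 to 46.6%, with a median of 33.1% and peaks in 25. In mb1-cre WT cells at 0 h, Nespas was covered for 100%, 0%, 93.1% and 92.3% in the 4 libraries. H3K27ac on Gnas was found in 21 libraries. In the mb1-cre system it covered 26.4% to 33.0% at 0 h (median 32.3%, 6 libraries) and 31.8% to 34.1% at 24 h (median 32.7%, 6 libraries), which overlap. In no gene of the 42 did the stretches of H3K27me3 and H3K27ac found in at least 50% of libraries share a base, at either time or over all libraries.

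**Figure D3:**
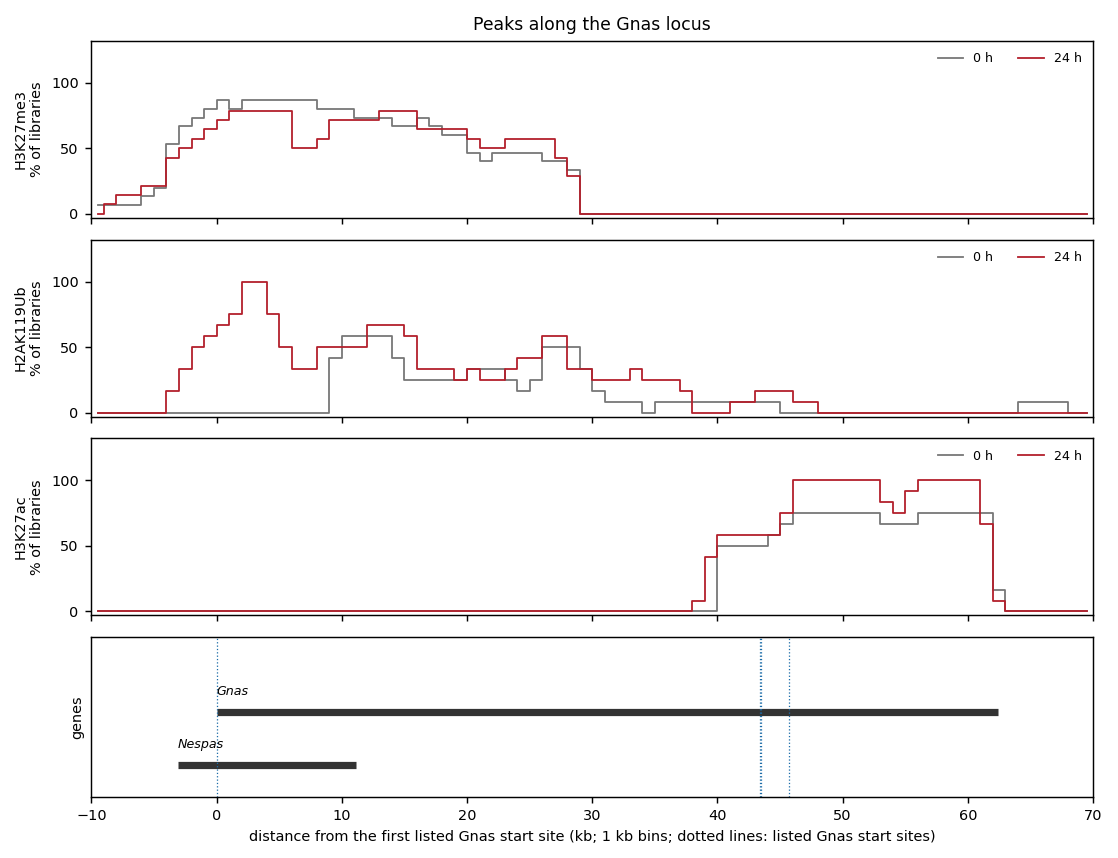
Percentage of libraries with a peak in each 1 kb bin across Gnas and Nespas, against distance in kb from the first Gnas start, with a panel for each mark (0 h in grey, 24 h in red). H3K27me3 occupies the upstream part and H3K27ac the downstream part, with no overlap of the stretches present in at least 50% of libraries, and H2AK119Ub over the first start appears at 24 h.

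Outside Gnas, H3K27ac was found in at least 50% of libraries on Ube3a (22 of 24), Cd81 (15), Commd1 (13) and Impact (12). Cd81 encodes a tetraspanin of the B cell co-receptor. Its H3K27ac stretch in at least 12 libraries (chr7:143056349-143060017) lay 3.60 kb from the nearest start. Ube3a, a ubiquitin ligase, had H3K27ac over a stretch of 6.70 kb (chr7:59226145-59232841) that holds its start. It was covered for 0 to 57.7% of its window, with a median of 7.08%. Ube3a and the other 4 genes of its domain, Snrpn (a splicing-factor gene), Ndn, Magel2 and Mkrn3, had no H3K27me3 peak in any library.

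Promoter windows were supplied for 35 of the 42 genes, 51 windows in all. Igf2, Mest, Grb10 and some others gave several windows each, so the counts of windows below are not counts of separate genes. The Mest windows that start at chr6:30737800 and chr6:30737803 nearly coincide. H3K27me3 lay on 15 of the 51 in at least 50% of libraries (29.4%, against 12.6% of 32619 promoters), H2AK119Ub on 12 (23.5%, against 20.3%) and H3K27ac on 4 (7.84%, against 11.0%). The promoter of Rasgrf1 was under H3K27me3 in 29 of 29 libraries and under H2AK119Ub in 24 of 24. That of Ascl2 was under H3K27me3 in 27 of 29, that of Plagl1 in 26 and that of the first Gnas start in 21. The printed Ube3a promoter was under H3K27ac in 22 of 24 libraries and under H3K27me3 in none, and the last Gnas start was under H3K27ac in 13. The windows of the 42 genes held a median of 14 CpGs (0 to 48), against 7 over all promoters. The letters TGCCGC, which the imprint-keeping protein ZFP57 recognises when methylated, were searched on both strands and found in 12 of 51 windows (23.5%, against 11.7% of all promoters), with 2 matches in the printed Mest window and 1 each in those of Nnat and Plagl1. The core letters GCCATNTT of the YY1 motif were found in 2 of 51 (3.92%, against 6.08%), the printed Ube3a window and that of Mkrn3. Both counts describe letters and not bound sites.

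The first comparison asked whether deletion of Xist altered these marks on imprinted autosomal genes. Libraries that had met Cre were compared between genotypes within each system and time. No imprinted gene was called. For H3K27me3, 0 of 7792 genes were called on peak presence (0%) and 0 of 11287 on signal share (0%), by an exact stratified permutation test, two-sided, with Benjamini-Hochberg adjustment over all genes tested and a threshold of 0.05. For H2AK119Ub 0 of 16828 and 0 of 19980 genes were called, and for H3K27ac 0 of 6420 and 0 of 9502 (0% in each). Before adjustment, p was under 0.05 for 149 and 520 genes of H3K27me3, 177 and 634 of H2AK119Ub, and 70 and 879 of H3K27ac, and for none of the imprinted genes. With limma on the signal share 1 gene was called for H3K27me3, not an imprinted one, and none for the other marks. For peak presence in H2AK119Ub and H3K27ac the smallest p seen in the exact test was 0.0025 and 0.005. These could pass the adjustment only if 842 and 643 genes reached them.

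Values for the imprinted genes with the smallest unadjusted p show the spread. H19, in H3K27me3, had peaks in 6 of 12 Xist fl/fl libraries and 3 of 11 WT libraries, with a difference of +1.02 ± 0.51 SE on the log2(ppm + 1) scale (unadjusted exact permutation p = 0.0794, adjusted p = 0.902). Dlk1 had peaks in all 23 of these, with a difference of -0.70 ± 0.18 SE (unadjusted exact permutation p = 0.0815). The sign of the Dlk1 difference was not shared by all settings, being positive in 2 of the 3 and negative in 1. In that setting, TAT-Cre at 24 h, H3K27me3 covered 65.9% ± 4.5 (SD, n = 3) of the Dlk1 window in WT and 15.5% ± 6.1 (SD, n = 3) in Xist fl/fl libraries. Peaks were also shorter in those Xist fl/fl lists, with medians of 4657 to 6171 bp against 6673 to 8479.5 bp in WT. The part of peak length in the Dlk1 difference was not tested. Rasgrf1 was covered for 50.2% ± 4.6 (SD, n = 4) in mb1-cre WT and 53.9% ± 7.1 (SD, n = 5) in mb1-cre Xist fl/fl libraries at 0 h, and Ascl2 for 100% in all 17 mb1-cre libraries of both genotypes. Mest was covered by H2AK119Ub for 53.0% ± 8.0 (SD, n = 3) and 57.1% ± 1.8 (SD, n = 3). H3K27ac covered 32.3% ± 0.8 (SD, n = 3) and 30.3% ± 3.4 (SD, n = 3) of Gnas in the same groups. The groups overlap in each of these but Dlk1 in TAT-Cre cells, where they do not, and that setting, named after its values were seen, was not tested alone.

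The second comparison, 24 h against 0 h, asked what changed on these genes with CpG, and was made within each system and genotype. Among the imprinted genes, most calls were in H2AK119Ub. Over all 20702 genes tested for its signal share, 8585 were called (41.5%), 35.2% higher and 6.27% lower at 24 h, with a median difference of +1.28 (log2(ppm + 1) scale). Of the 29 imprinted genes tested 14 were called, 12 higher and 2 lower, and their median difference was +1.75. The share called among the tested imprinted genes, 48.3%, is close to that of all genes. Of 9 B cell markers tested, 6 were called higher and 0 lower (median +2.63), and of 9 T cell markers 4 and 0 (median +1.71). The rise was thus also seen on B cell genes that carried H3K27ac in every library.

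Ascl2 and Igf2 rose. At 0 h, H2AK119Ub covered 0 to 71.3% of the Ascl2 window (median 0, peaks in 5 of 12 libraries). At 24 h it covered 82.0% to 100% (median 100%, peaks in 12 of 12). The times do not overlap, and each of the 4 combinations of system and genotype rose. On the signal share Ascl2 rose by 4.17 ± 0.67 SE (exact stratified permutation test, adjusted p = 0.00017, the smallest it can give), or 2.89 above the median gene. Igf2 was covered for 0 to 29.1% at 0 h (median 0, 5 of 12) and for 35.4% to 63.2% at 24 h (median 46.9%, 12 of 12). These ranges are also apart. Igf2 rose by 4.65 ± 0.74 SE (exact permutation test, adjusted p = 0.00017), 3.37 above the median gene. At the Ascl2 promoter printed above, peaks were in 3 of 12 libraries at 0 h and 12 of 12 at 24 h. H3K27me3 was already on both genes at 0 h: the part of Igf2 covered by both Polycomb marks, each in at least 50% of libraries, went from 0 kb at 0 h to 11.0 kb at 24 h, and for Ascl2 from 0 kb to 6.44 kb.

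The 10 other genes that rose included those of the Gnas locus and the rest of the Kcnq1 domain except Tssc4, which was not called. Nespas was covered for 0 to 18.7% at 0 h (median 13.7%) and 22.1% to 89.6% at 24 h (median 35.1%), with no overlap, and rose by 3.11 ± 0.74 SE (exact permutation test, adjusted p = 0.00017). Gnas rose by 2.70 (adjusted p = 0.00254, same exact test), with peaks in 8 and then 12 of 12 libraries. Over the first Gnas promoter, H2AK119Ub was in 0 of 12 libraries and then 7 of 12. Within the Kcnq1 domain the rises were 4.55 for Kcnq1, 4.04 for Kcnq1ot1, 3.03 for Slc22a18 (a membrane transporter gene), 2.86 for Cd81 and 2.27 for Phlda2 (adjusted p of the exact test between 0.00017 and 0.0206). Cd81 was covered for 0 to 39.3% (median 18.8%) and then 21.1% to 57.8% (median 47.2%), ranges that overlap. Dio3, the enzyme that inactivates thyroid hormone, had no peak in 12 libraries at 0 h and peaks in 9 of 12 at 24 h. Its signal share rose by 3.09 (exact permutation test, adjusted p = 0.00254). Slc22a3, an organic cation transporter near Igf2r, had peaks in 0 and then 7 of 12. Its signal share rose by 2.57 (adjusted p = 0.0236, same exact test), and that of Airn by 2.17 (adjusted p = 0.0413, same exact test). On peak presence in deposited lists, Dio3 was called (exact permutation test, adjusted p = 0.0129) and Slc22a3 was not (0.0592, same test). Dio3 and Slc22a3 met the filter of 3 libraries with signal through 24 h libraries alone, and their rises are measured from 0. The longest H2AK119Ub list of all, a 0 h list of 40688 peaks, held no peak on Dio3 or Slc22a3. That was 1 library, and the shortest list with a Dio3 peak held 14806 peaks. The part of list length in these 2 rises was not tested.

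Rasgrf1 and Mest fell in signal share. H2AK119Ub signal on Rasgrf1 was 501 to 1473 ppm at 0 h (median 816) and 275 to 517 ppm at 24 h (median 366), so the ranges overlapped slightly. It fell by 1.20 ± 0.15 SE (exact permutation test, adjusted p = 0.00017), in a comparison where the median gene rose by 1.28. The stretch under H2AK119Ub in at least 50% of libraries within its window went from 66.3 kb to 48.1 kb. Mest was covered for 30.0% to 62.0% at 0 h (median 55.6%) and 29.4% to 60.8% at 24 h (median 46.4%), which overlap, and fell by 0.90 ± 0.24 SE (exact permutation test, adjusted p = 0.00324). Both genes had a peak in all 24 libraries. Every list was also trimmed to its 2004 strongest peaks by total signal, so that length was equal. On these lists Rasgrf1 fell by 1.50 and Mest by 4.65 (adjusted p of the exact test 0.000587 and 0.0185).

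**Figure D4:**
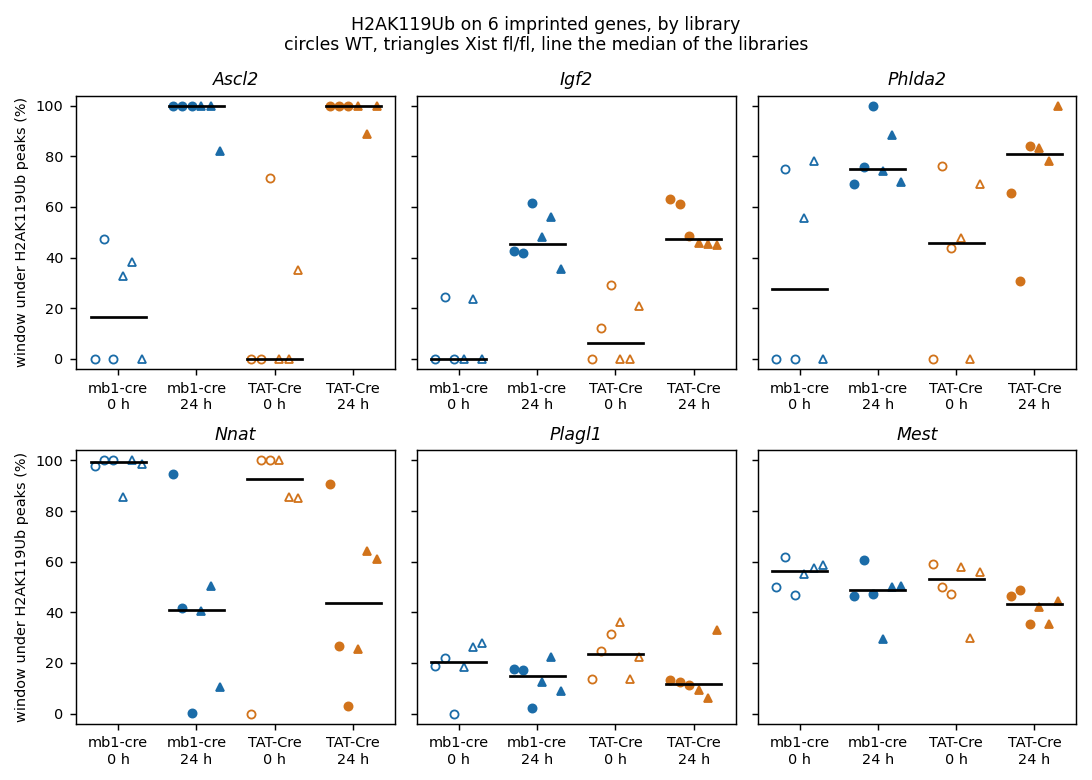
Percentage of each gene's window covered by H2AK119Ub peaks in each of 24 libraries, for Ascl2, Igf2, Phlda2, Nnat, Plagl1 and Mest (circles WT, triangles Xist fl/fl, blue mb1-cre, orange TAT-Cre, open 0 h, filled 24 h, lines medians). Ascl2 and Igf2 at 24 h lie above all 0 h values, and the median of Nnat goes from 99.2% to 41.0% with overlapping values.

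Rank within the list was examined by keeping the 2004 strongest peaks of each H2AK119Ub list by total signal, which grows with peak width. On this measure a gene with a peak at both times can still move in or out. The upper 50% of each list, used below, was ranked by highest signal instead. Median peak length ran from 2838 to 16023 bp in the 0 h lists and from 2948 to 7223 bp in the 24 h lists. The part of peak width in the moves below was not tested. Of 4307 genes tested, 1247 were called (29%, 17.4% higher and 11.5% lower at 24 h). Of the 7 imprinted genes tested, 4 were called. Ascl2 entered the strongest peaks, from 0 to 8 of 12 libraries (adjusted p = 0.00885, exact permutation test). Nnat, a small membrane proteolipid of the brain that sits inside another gene, left them, from 10 to 0 of 12 (adjusted p = 0.00225). Plagl1 went from 9 to 0 (adjusted p = 0.00599) and Mest from 11 to 4 (adjusted p = 0.0406), all by the same exact test. In the deposited lists these 3 kept a peak at 24 h in 12 of 12 libraries, as against 11, 11 and 12 of 12 at 0 h. The cover of Nnat went from 0 to 100% at 0 h (median 99.2%) to 0.078% to 94.5% at 24 h (median 41.0%), and that of Plagl1 from 0 to 36.3% (median 22.1%) to 2.2% to 33.0% (median 12.5%). At the printed Nnat promoter H2AK119Ub was in 11 of 12 libraries and then 4 of 12. With the upper 50% of each list kept, Nnat (-0.083) and Plagl1 (0.0, both as a difference in the share of libraries) were not called (exact permutation test, adjusted p = 1.0 for both). Ascl2 (+0.83) and Igf2 (+0.92), the latter not called on trimmed lists, were called higher there (exact permutation test, adjusted p = 0.00586 and 0.00305). The share of all genes called on presence in the upper 50% is not given here. The call for Ascl2 did not hold on deposited lists (5 and then 12 of 12, exact permutation test, adjusted p = 0.0592). That of Mest was lost without TAT-Cre WT 24 h replicate 3 (adjusted p over single left-out libraries 0.0097 to 0.0569, same test). Dlk1 went from 6 to 0 of 12 (adjusted p = 0.0581, same test, not called).

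On trimmed lists the calls of signal share moved. Among all 5375 genes tested there, 1371 were called higher and 934 lower, in place of 7286 and 1299 on deposited lists. On the log2(ppm + 1) scale, the called imprinted genes were Ascl2 (+4.90), Nnat (-5.70), Plagl1 (-5.63), Mest (-4.65), Dlk1 (-2.69) and Rasgrf1 (-1.50). Igf2 (+3.40, adjusted p = 0.095, exact permutation test) and Slc22a18 (+1.17, adjusted p = 0.276, same test) lost their calls, and the other 9 that had risen were not tested because too few trimmed lists had signal on them. With the upper 50% of each list kept, the share of all genes called on signal share is not given here, so the calls cannot be set beside it. There, Igf2 (+6.42), Ascl2 (+5.38), Kcnq1 (+3.48) and Slc22a18 (+3.47) were called higher (exact permutation test, adjusted p between 0.000206 and 0.00873). Rasgrf1 (-1.31) and Mest (-0.82) were called lower. The calls of 7 genes were lost there: Phlda2 (+2.25, adjusted p = 0.0557, same exact test), Cd81 (+2.21, 0.105), Kcnq1ot1 (+2.00, 0.18), Dio3 (+1.12, 0.349), Nespas (+1.32, 0.349), Gnas (+1.13, 0.441) and Airn (+1.02, 0.522). Slc22a3 was tested in neither. The longer lists at 24 h moved with them, and their part in these rises was not tested.

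H3K27ac changed on Commd1 and Tssc4. Of 9710 genes tested for signal share, 4435 were called (45.7%, 37.4% higher and 8.31% lower), with a median difference of +1.66, and of the 7 imprinted genes tested 2 were called, both higher. Commd1 encodes a copper-handling and NF-kB-regulating protein. Its H3K27ac signal was 0 to 47.4 ppm at 0 h (median 0, peaks in 1 of 12 libraries) and 129 to 271 ppm at 24 h (median 183, peaks in 12 of 12), and the times do not overlap. It rose by 7.06 ± 0.48 SE (exact permutation test, adjusted p = 0.000249), 5.40 above the median gene, in each combination of system and genotype. The stretches gained were inside the gene: the one shared by at least 12 of 24 libraries (chr11:22934315-22939173, 4.86 kb) lay 33.7 kb from the nearest start. Cover at 24 h was 23.9% to 36.9% in mb1-cre cells and 6.83% to 23.1% in TAT-Cre cells. Tssc4, a gene of spliceosome assembly in the Kcnq1 domain, had H3K27ac in 1 and then 9 of 12 libraries and rose by 3.70 ± 0.83 SE (adjusted p = 0.0132, exact permutation test). The longest list without a Commd1 peak held 4926 peaks, and the shortest with one held 3669. The 1 list at 0 h with a Commd1 peak, TAT-Cre Xist fl/fl replicate 2, was the longest of this mark, with 10393 peaks. The part of list length in the rises of Commd1 and Tssc4 was not tested. Neither gene had a peak among the 1336 strongest in enough libraries to be tested on trimmed lists, where 499 of 1753 genes were called on presence (28.5%, with 14.8% higher and 13.6% lower) and 0 of 1 imprinted gene.

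Impact, a regulator of translation, had H3K27ac in 3 and then 9 of 12 libraries, with a difference of +2.87 that was not called (adjusted p = 0.0757, exact permutation test). Gnas had H3K27ac peaks in 9 and then 12 of 12. Ube3a was covered for a median of 8.67% at 0 h and 5.57% at 24 h, and Cd81 for 10.0% and 43.6%, neither of which was called on deposited lists. In the upper 50% of each list Cd81 was called higher (signal share +3.24, exact permutation test, adjusted p = 0.0219). The share of all genes called on signal share there is not given here. In the mb1-cre system alone, Cd81 ranged from 0 to 53.8% at 0 h and 35.6% to 69.5% at 24 h, which overlap.

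H3K27me3 changed on few imprinted genes with stimulation. On trimmed lists 44 of 3433 genes were called on presence (1.28%, with 0.466% higher and 0.816% lower at 24 h) and none of the 11 imprinted genes tested. Igf2 was among the 1955 strongest peaks in 3 of 15 libraries at 0 h and 11 of 14 at 24 h (adjusted p = 0.15, exact permutation test), and Phlda2 in 4 and 10 (adjusted p = 0.353, same test). On signal share 175 of 11670 genes were called (1.5%, with 1.07% higher and 0.428% lower), among them 1 of 26 imprinted genes. This was Rasgrf1, with 528 to 1315 ppm at 0 h (median 746) and 159 to 784 ppm at 24 h (median 549). The ranges overlap. It fell by 0.62 ± 0.16 SE (adjusted p = 0.029, exact permutation test), in each of the 4 combinations of system and genotype, and by 0.62 on trimmed lists (adjusted p = 0.00954, same test). In the upper 50% of each list it was not called (-0.65, adjusted p = 0.129, same test). The call was lost when any of 10 single libraries was left out, with differences of -0.75 to -0.53 and adjusted p of 0.0081 to 0.119 over all 29 such tests. The 10 were mb1-cre WT 24 h replicate 1, mb1-cre Xist fl/fl 24 h replicates 1, 2 and 3, TAT-Cre WT 0 h replicate 1, TAT-Cre WT 24 h replicates 1 and 3, and TAT-Cre Xist fl/fl 0 h replicates 1, 2 and 3.

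The stimulation effect on H3K27me3 differed between the systems. In a limma fit with a term for system, chosen after seeing the data, 2822 of 11670 genes differed (24.2%), against 2 of 20702 for H2AK119Ub (0.00966%) and 308 of 9710 for H3K27ac (3.17%). Of the 26 imprinted genes tested 7 differed in H3K27me3, a share near that of all genes. Dio3 had no peak in 9 mb1-cre libraries at 0 h and was covered for 74.7% to 100% in 8 of 8 at 24 h (median 100%). In TAT-Cre cells its cover was 0 to 66.5% at 0 h (peaks in 3 of 6) and 0 to 72.5% at 24 h (1 of 6). The mb1-cre times were fully apart and the TAT-Cre times overlapped. Slc22a3 had peaks in 0 of 9 and 8 of 8 mb1-cre libraries (5.69% to 8.94% covered at 24 h), and in 3 of 6 and 0 of 6 TAT-Cre libraries. Sgce, a sarcoglycan, had peaks in 3 of 9 and 7 of 8 mb1-cre libraries, and in 4 of 6 and 0 of 6 TAT-Cre libraries. The differences between the systems' effects, TAT-Cre minus mb1-cre on the log2(ppm + 1) scale, were -6.23 for Dio3, -7.92 for Slc22a3 and -6.10 for Sgce (limma, adjusted p = 0.000803, 8e-06 and 0.0108).

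List length moved the same way. The median H3K27me3 list went from 4948 to 12722 peaks in mb1-cre cells and from 12930 to 6113.5 in TAT-Cre cells. In mb1-cre cells all 24 h lists (7972 to 15150 peaks) were longer than all 0 h lists (1955 to 7117), so time and list length cannot be told apart there. Among the 1955 strongest peaks of each list, Dio3, Slc22a3 and Sgce had none in any library. Airn, Igf2r and Peg10, a retrotransposon-derived placental gene, differed in the same direction, and Mest in the opposite one, with changes of +0.40 in TAT-Cre and -0.71 in mb1-cre cells.

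**Figure D5:**
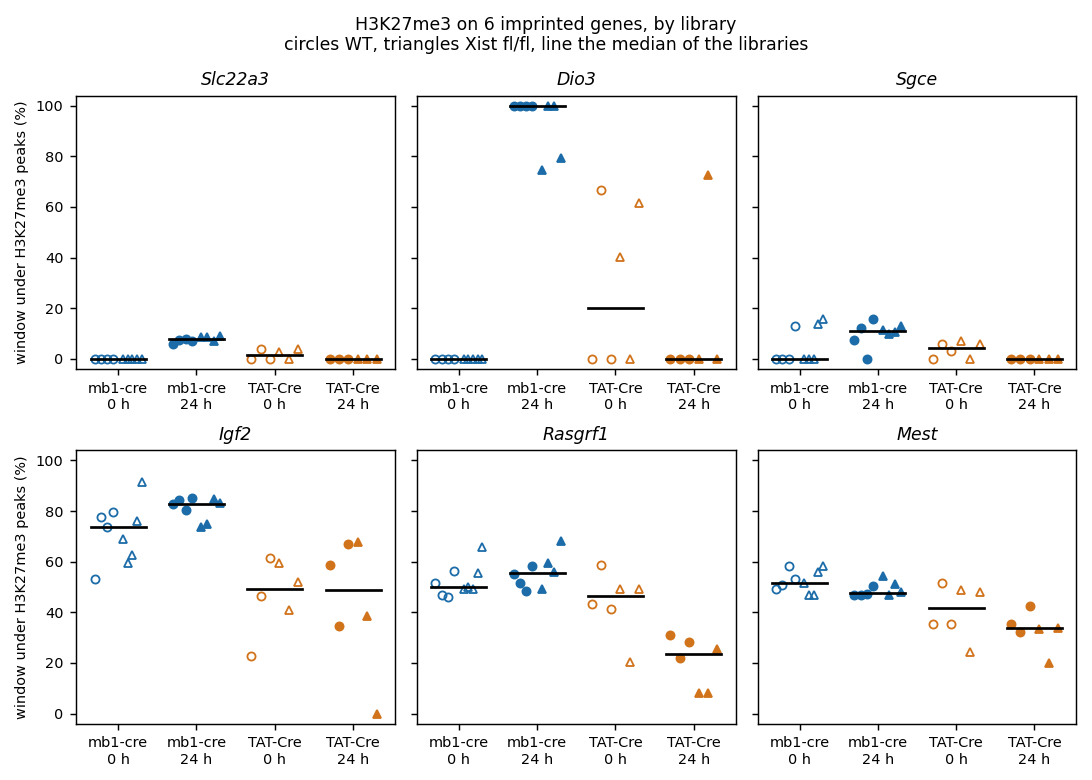
Percentage of each gene's window covered by H3K27me3 peaks in each of 29 libraries, for Slc22a3, Dio3, Sgce, Igf2, Rasgrf1 and Mest (circles WT, triangles Xist fl/fl, blue mb1-cre, orange TAT-Cre, open 0 h, filled 24 h, lines medians). Dio3 and Slc22a3 are at 0 in all mb1-cre libraries at 0 h and above 0 in all at 24 h, while Rasgrf1 and Mest have peaks in all 29.

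By domain, the marks fell in different parts of the set. The H19/Igf2 domain of 95.3 kb was covered by H2AK119Ub for a median of 2.87% at 0 h and 16.3% at 24 h, and had no H3K27ac in any library. The Kcnq1 domain was covered for 5.21% and 14.2% by the same mark, and the Gnas domain for 6.57% and 21.8%. Medians of H2AK119Ub were lower at 24 h in 5 domains: Nnat (99.2% and 41.0%), Plagl1 (22.1% and 12.5%), Rasgrf1 (54.9% and 40.0%), Mest (7.17% and 5.95%) and Peg10/Sgce (1.23% and 0.718%). In the last, Peg10 had a median cover of 23.1% at 0 h and 0 at 24 h and Sgce of 6.46% and 0, and neither was called on signal share (adjusted p = 0.188 and 0.312, exact permutation test). The Peg3 domain of 297 kb, with Peg3, Usp29 and Zim1, had no H2AK119Ub or H3K27ac peak in any library and H3K27me3 in 4 of 29. In the Dlk1-Meg3 domain of 833 kb, H3K27me3 covered a median of 1.41%, and a peak was on Dlk1 in 29 and on Dio3 in 12 of 29 libraries. The Igf2r/Airn domain had H3K27me3 in 12 of 29 and H2AK119Ub in 20 of 24 libraries, with medians of 0 and 2.38%.

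A list of 16 proteins that set, read or erase imprints was read beside the imprinted genes. In at least 50% of libraries, H3K27me3 lay on 3 of the 16, H2AK119Ub on 10 and H3K27ac on 8, where 20.2%, 36.2% and 15.4% of all autosomal genes had these marks, and the difference was not tested. H3K27me3 lay on Zfp57 (29 of 29), the methylcytosine oxidase Tet1 (26) and Dppa3 (19), a factor that protects methylation in the early embryo. It lay in no library on 12, among them the maintenance methyltransferase Dnmt1. H3K27ac was on Arid4b and Smchd1 in 24 of 24 libraries, on the insulator protein Ctcf in 23 and on Tet3 in 20. H2AK119Ub was on Tet1 in 24, on Zfp57 and the methyltransferase Dnmt3b in 20 and on Tet3 in 19. None of these genes was called between genotypes. With stimulation, 7 of 13 tested rose in H2AK119Ub signal share and none fell, beside 35.2% and 6.27% of all genes, and the median of the 13 was +2.02. In H3K27ac signal share 5 rose and 1 fell of 10 tested, beside 37.4% and 8.31% of all genes.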

How the data were processed

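Per the labels, CUT&RUN used antibody at 3 µg (H3K27me3, H3K27ac) or 1.5 µg (H2AK119Ub), with yeast DNA as a spike-in. Per the submitters' processing notes, Trimmomatic 0.32, Bowtie2 2.3.4.1, Picard and deepTools 3.5.1 were used, with mm10. Which peak caller version, control and scaling were used: not given in the sources used here. As deposited, the 77 lists (6 columns, 883735 peaks) give each peak's position, total signal and highest signal. The unit is summed coverage, and lists may be on different scales.

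Gene bodies of GRCm38.p6 with 2 kb on either side were scored for peak presence (at least 1 bp), covered percentage and signal share (ppm of the list's autosomal signal, overlapping peaks counted by the fraction inside). All 42 genes matched, 41 by symbol and Nespas by a synonym. Genes were tested on presence where 3 or more libraries had a peak and 3 or more lacked one, and on share where 3 or more had signal. They were tested by exact two-sided stratified permutation, the share as log2(ppm + 1), with Benjamini-Hochberg adjustment over all genes tested and a threshold of 0.05. Stimulation presence used lists trimmed, by total signal, to the shortest list of the mark (1955, 2004 and 1336 peaks). The upper 50% of each list was taken by highest signal. The differences are means over strata, ± SE. The tests were checked on simulated data. limma 3.58.1 was the other tool, with numpy 2.4.6, scipy 1.17.1 and R 4.3.3. The 1 H3K27me3 library titled as naive but with a stimulated treatment entry (mb1-cre Xist fl/fl 0 h replicate 5) was grouped by its title. Values by library are given for up to 8 genes per mark by covered share and up to 6 per comparison and mark by the smallest p, others as counts or single values. Alternatives were trimmed or deposited lists, the upper 50% of each list, no filter, no flanks, a 500 bp overlap, a pseudocount of 10, a replicate block, limma, replicate 5 at 24 h and each library left out. The members and lists were chosen with earlier results of these data known.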

Additional observations from a re-analysis of the deposited data

Results flagged for a closer look

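In H3K27me3 groups of 4 or 5 libraries, a library stood apart from its group by Dixon's gap test in 4 of 32 gene and group combinations checked, where chance flags about 1 in 20. Only the mb1-cre H3K27me3 groups are large enough for this check, and the Gnas and Nespas windows overlap, so the combinations are not independent. Nespas was covered for 0.0% in mb1-cre WT 0 h replicate 2, with the others at 92.3% to 100%. It was covered for 82.0% in mb1-cre WT 24 h replicate 2, with the others at 99.8% to 100%, and for 49.2% in mb1-cre Xist fl/fl 24 h replicate 1, with the others at 87.8% to 91.8%. Gnas was covered for 33.5% in mb1-cre WT 24 h replicate 3, with the others at 44.9% to 45.3%.

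For 7 of 26 genes tested, beside 24.2% of all genes, the change in H3K27me3 signal share from 0 h to 24 h differed between the systems by limma's interaction term, given here as TAT-Cre minus mb1-cre on the log2(ppm + 1) scale. The difference was -7.92 for Slc22a3, -6.23 for Dio3, -6.10 for Sgce, -4.09 for Peg10, -3.83 for Igf2r, -3.78 for Airn and 1.10 for Mest (limma, adjusted p between 8e-06 and 0.0419). Igf2r and Airn share part of their windows, as do Peg10 and Sgce.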

How the results depend on the processing

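All 12 tests across genes were recomputed under the alternatives. Between genotypes, 0 genes were called under each alternative except trimmed H3K27me3 lists (4 on presence, 7 on share) and limma (1 for H3K27me3 share), none of them an imprinted gene. For stimulation, 44 genes on H3K27me3 presence became 0 on deposited lists, 0 with a replicate block, 21 with replicate 5 at 24 h and 16 with the upper 50% of each list (14 higher, 2 lower), and H3K27me3 share gave 60 with the block and 323 with limma in place of 175. H2AK119Ub presence gave 2047 on deposited lists (2018 higher, 29 lower) and 828 with the block in place of 1247, and its share 2305 on trimmed lists in place of 8585. H3K27ac presence gave 2483 on deposited lists (2458 higher, 25 lower), 1935 with the upper 50% (1882 higher, 53 lower) and 313 with the block in place of 499, and its share 1258 on trimmed lists (667 higher, 591 lower) in place of 4435. Trimmed lists test fewer genes, and otherwise the cause was not tested. On trimmed H3K27me3 lists 53 genes were higher and 65 lower in share. The median number of imprinted genes with a peak fell to 8, 4 and 1 on trimmed lists for H3K27me3, H2AK119Ub and H3K27ac, and to 2 for H3K27ac in the upper 50%.

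With single libraries left out, calls ranged from 28 (without mb1-cre Xist fl/fl 0 h replicate 4) to 50 for H3K27me3 presence, from 80 (without mb1-cre Xist fl/fl 24 h replicate 2) to 322 (without TAT-Cre WT 0 h replicate 3) for its share, which moved by over 1.5 times in 12 of 29 cases, from 1364 to 1493 and 7486 to 9251 for H2AK119Ub presence and share, and from 496 to 593 and 3689 to 5372 for H3K27ac. Between genotypes they stayed at 0. Without the 4 H2AK119Ub lists of under 5000 peaks, an alternative chosen after seeing the data, 852 and 6024 genes were called. The numbers of imprinted genes among them, 4 and 14, were as before, but on presence Mest lost its call and Dlk1 gained one.

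The correlation of same-numbered libraries' deviations was over 0.1 in 3 of 11, 2 of 9 and 3 of 9 genotype pairs and in 1 of 14, 0 of 12 and 0 of 12 stimulation pairs (H3K27me3, H2AK119Ub, H3K27ac), not in every pair of any comparison, so the replicate block is only an alternative. A library correlated best with its own number in 3 of 11, 1 of 9 and 5 of 9 and in 2 of 14, 8 of 12 and 4 of 12 cases. With it, Rasgrf1 in H3K27me3 (-0.65) and Mest in H2AK119Ub presence (-0.58) lost their calls. The Mest call was also lost with no filter and without the 4 short lists. Dlk1 was called on H2AK119Ub presence without the 4 short lists (-0.67) and with any of 6 single libraries left out (adjusted p of the exact test 0.0191 to 0.0934), Impact in H3K27ac by limma and with any of 7 left out (0.0247 to 0.145), and Igf2 in H3K27me3 presence without TAT-Cre Xist fl/fl 0 h replicate 2 (0.0468). The peak lists carry no read depth, which limits what absence of a peak in a short list can show.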

Other observations

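Of 32 other imprinted genes, 9 had H3K27me3, 13 had H2AK119Ub and 7 had H3K27ac in at least 50% of libraries. Klf14, a zinc-finger gene near Mest, and Asb4 had both Polycomb marks in every library, Klf14 over a median of 100% of its window for each mark. Sfmbt2 had H3K27me3 in 29 of 29 libraries and H2AK119Ub in 20 of 24. The cell-cycle inhibitor gene Cdkn1c had them in 21 and 19. H3K27ac was on Inpp5f in 24 of 24 libraries, on Tspan32 in 22 and on Nap1l4 in 19, and the last 2 lie beside the Kcnq1 domain genes. With stimulation, 12 of 22 tested rose in H2AK119Ub signal share and 1 fell, beside 35.2% and 6.27% of all genes, and 5 of 10 rose in H3K27ac signal share, beside 37.4%. Blcap, the gene that contains Nnat, was called lower among the strongest H2AK119Ub peaks, as Nnat was, and kept a peak in 11 and then 12 of 12 deposited lists. None was called between genotypes.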
